A study of Mus musculus with 2 samples.

Results

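Angpt1, Angpt2, Tek and Tie1 encode the secreted angiopoietins and their Tie receptors, and they are 4 of the 33696 genes counted in this single-nucleus RNA sequencing study of the mouse cochlea. They were found by gene symbol in the deposited tables, and each symbol matched 1 row. Angpt1 was chosen by its ratio of cOE over control in supporting cells of these same libraries, where it was lower in cOE. Its values in supporting cells are therefore given as a description, and the other 3 genes joined it as its family.

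The Serpine2 cOE library was made from nuclei of 20 pooled cochleae, taken from Lgr5EGFP-CreER/+,Serpine2loxp/loxp mice. The control library came from 19 pooled cochleae of Serpine2loxp/loxp mice, which lack the driver allele. All mice were given tamoxifen at postnatal day 1 and were sampled at postnatal day 7. In the cOE mice the Lgr5 locus drives a tamoxifen-dependent Cre, and Lgr5 in the neonatal cochlea is known from a subset of supporting cells. The name cOE stands for conditional overexpression of Serpine2, as the study's title has it, but what Cre makes of the loxP allele is not given, the nuclei are not sorted by recombination, and the driver allele cannot be told apart from the change in Serpine2. Each group is 1 library, so no difference below has a replicate check, no test was run, and every interval is a 95% interval that covers counting error only.

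In blood vessels, Angpt1 is the activating ligand of the receptor tyrosine kinase Tek, also called Tie2, and it comes mainly from cells around the vessel wall. Angpt2 is stored and released by endothelial cells and can block or activate Tek depending on context. Tie1 binds no angiopoietin strongly on its own and acts in complexes with Tek. In the inner ear the best known vessel bed is the stria vascularis, whose capillaries supply the endolymph-producing epithelium.

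Filtering left 9777 cOE and 8250 control nuclei, with medians of 2401 and 2247 UMIs (unique molecular identifiers, each standing for 1 captured RNA molecule). Serpine2 itself stood at 85.98 CPM (the UMIs of a gene scaled to 1000000 UMIs in all over the same nuclei) in cOE and 88.9 CPM in control over all nuclei. In nuclei gated as supporting cells it stood at 191 CPM (153 to 236) in cOE and 184 CPM (134 to 245) in control. Serpine2 was thus not higher in the library labelled cOE, either over all nuclei or in this gate beyond counting error. In other sets of supporting cells, described below, it was higher in cOE, and the level intervals of the libraries overlapped. Such overlap does not show that the levels are equal, and no interval was made for the ratio of Serpine2. Clusters 19, 23 and 24 had 249 CPM (217 to 283) in cOE and 187 CPM (153 to 226) in control. Nuclei with both Prox1 and Fgfr3 had 140 CPM (123 to 158) and 118 CPM (100 to 137). The counts do not settle that label. The name cOE is used below for the library so labelled. The labels describe hair and supporting cells, but a nucleus was gated by the marker list of which it held most genes, and mesenchyme was the largest gate with 4041 cOE and 3408 control nuclei. Supporting cells numbered 91 and 55, and 2672 and 3029 nuclei reached no gate. The libraries shared 15 cell barcodes among kept nuclei.

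Vessel cells were nearly absent. The endothelial gate held 6 cOE and 14 control nuclei, the pericyte or smooth muscle gate 0 and 1. All 13 endothelial markers were detected somewhere, with a summed level of 429 CPM in cOE and 507 CPM in control. Most of that sum was Emcn, with 11840 and 11708 UMIs, 7108 and 6564 of them in mesenchyme. The other markers varied. Flt1 had 981 and 896 UMIs, 9 and 23 of them in the endothelial gate, and Mmrn2 had 511 and 421. Cdh5, the cadherin of endothelial junctions, had 155 and 153 UMIs, and Cldn5, a tight junction gene of vessels, had 16 and 33.

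Angpt1 (ENSMUSG00000022309, chromosome 15, 42288058 to 42540417, minus strand in GRCm39) gave 391 UMIs in 301 of 9777 cOE nuclei and 391 UMIs in 307 of 8250 control nuclei. Its level was 11.9 CPM in cOE and 14.5 CPM in control, a log2 ratio of cOE over control of -0.28 (-0.49 to -0.07). Most positive nuclei held a single UMI, 237 nuclei in cOE and 254 in control. The highest nucleus held 6 in cOE and 11 in control. The same number of molecules was thus spread over a larger cOE library. At its 5' end the gene overlaps the lncRNA Gm17473 on the other strand over 815 exonic bases.

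Over all kept nuclei none of the 4 genes differed more than 2-fold between libraries, where 1.58% of 20757 genes with at least 20 UMIs were past 2-fold lower and 1.54% past 2-fold higher. The counting interval lay below 0 for Angpt1 and Angpt2, as it did for 19.2% of all genes. It lay above 0 for none of the 4, against 21.8% of all genes. Shares of this size show how common such intervals are between these libraries.

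**Figure D1:**
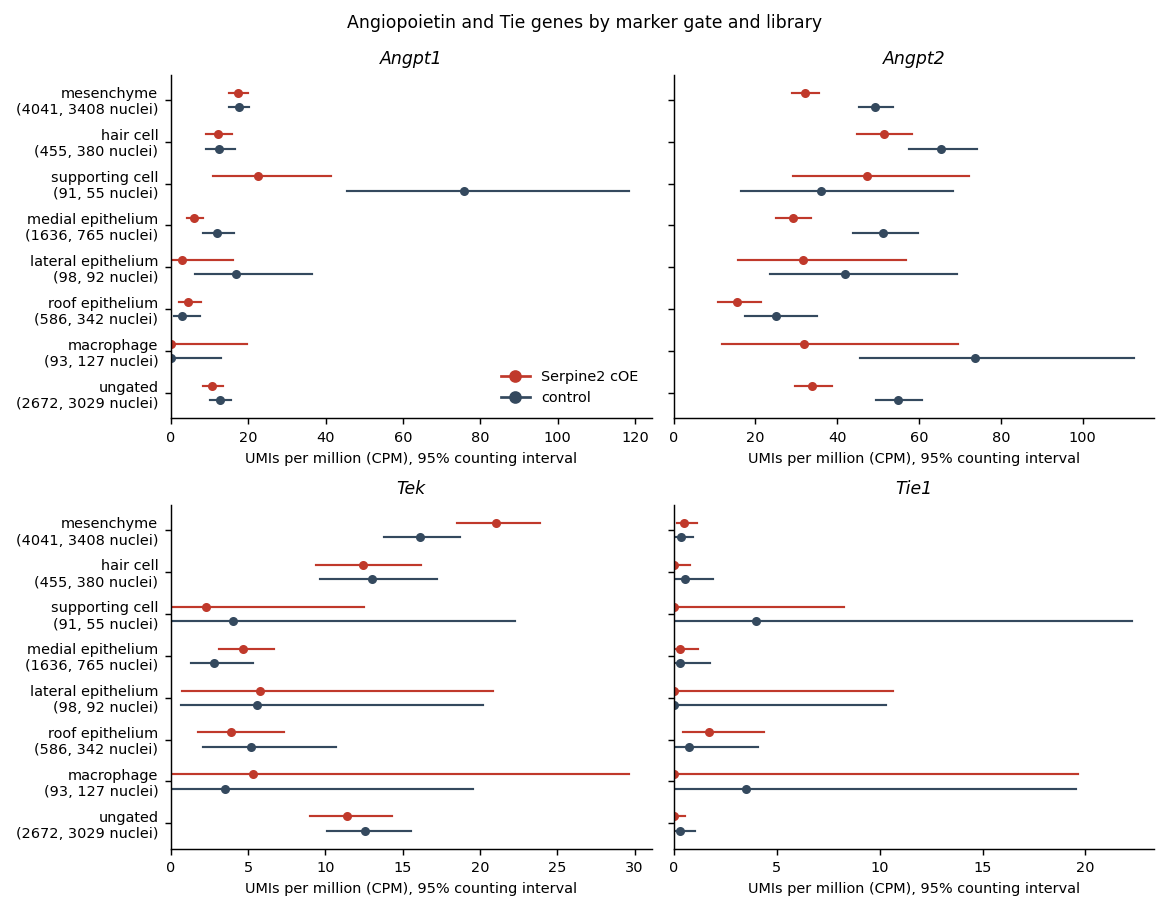
Level of each gene in CPM (horizontal axis) by marker gate, with the cOE library above control in each row, 95% counting intervals as lines and nuclei of both libraries in brackets (cOE first). Angpt1 in supporting cells was 22.5 CPM in cOE and 75.8 CPM in control. Angpt2 in mesenchyme was 32.1 CPM in cOE, against 49.3 CPM in control.

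Mesenchyme carried about as much of the Angpt1 signal as all other nuclei together. It held 204 of the cOE UMIs, 52.2%, and 189 of the control UMIs, 48.3%, while it held 35.8% and 39.98% of all UMIs. The level in mesenchyme was 17.4 CPM (15.1 to 20.0) in cOE and 17.5 CPM (15.1 to 20.2) in control, with a log2 ratio of -0.01 (-0.30 to 0.29). The libraries did not differ here beyond counting error, and the interval leaves out a change of 2-fold in either direction.

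Angpt1 was uneven among the clusters in which mesenchyme was the largest gate. In the one led by Col6a6, Unc13c and Aldh1a2 (cluster 0 of 26, made without the 4 genes) it reached 30.5 CPM (25.2 to 36.5) in cOE and 30.01 CPM (24.5 to 36.4) in control. In the cluster led by Car3 and Slc7a11 (cluster 10) it stood at 28.4 CPM in cOE and 24.6 CPM in control. The cluster led by 8030451A03Rik and Tnc (cluster 2) had 7.59 CPM (4.34 to 12.3) in cOE and 8.89 CPM (5.08 to 14.4) in control. The order of these 3 clusters was the same in both libraries, and the intervals of clusters 0 and 10 lay above that of cluster 2.

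Among the other gates, hair cells held 55 cOE and 47 control UMIs of Angpt1, at 12.2 CPM (9.20 to 15.9) and 12.5 CPM (9.18 to 16.6). Their log2 ratio was -0.03 (-0.62 to 0.56). Roof epithelium, the thin epithelium opposite the sensory strip, was low at 4.29 CPM (2.06 to 7.89) in cOE and 2.96 CPM (0.81 to 7.57) in control. Lateral epithelium had 1 cOE and 6 control UMIs. Macrophages, which should lack Angpt1, had 0 among 188047 cOE and 285483 control UMIs, which allows levels of up to 16.0 and 10.5 CPM.

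Of the gates with at least 20 nuclei in each library, 6 held Angpt1. In order of level, they ran in cOE from supporting cells over mesenchyme and hair cells to medial, roof and lateral epithelium. Neighbours in that order had overlapping intervals, except that hair cells stood above medial epithelium. At an equal depth of 1000 UMIs per nucleus that gap was not seen. There 0.90% (0.25 to 2.29) of cOE hair cells and 0.50% (0.22 to 0.99) of cOE medial nuclei were positive. The control shares were 0.55% (0.07 to 1.98) and 1.38% (0.66 to 2.53). In control, supporting cells, by whose value the gene was chosen, were highest of the 6. Mesenchyme, lateral epithelium, hair cells and medial epithelium followed with overlapping intervals, and roof epithelium stood below mesenchyme, hair cells and medial epithelium. At equal depth the control roof share, 0 of 338 nuclei with an interval up to 1.09%, overlapped those of hair cells and medial epithelium. After each nucleus was thinned to 1000 UMIs, Angpt1 was found in 1.61% of 3910 cOE and 1.92% of 3277 control mesenchyme nuclei, against 0 of 88 and 0 of 112 macrophages, which allows 3.41% and 2.68%. Without thinning these shares were 4.01% and 4.55% in mesenchyme, at median depths of 2342 and 2425 UMIs in mesenchyme and 1667 and 1576 UMIs in macrophages. So few macrophages do not separate the thinned mesenchyme shares from background RNA. In CPM before thinning, the control mesenchyme interval given above lay above the control macrophage limit of 10.5 CPM. The cOE mesenchyme interval held the cOE macrophage limit of 16.0 CPM. The part of background RNA in these values was not tested.

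Supporting cells, the non-sensory cells around the hair cells, are where the libraries were furthest apart among gates with at least 20 Angpt1 UMIs. The gate held 10 Angpt1 UMIs in 7 of 91 cOE nuclei and 19 UMIs in 6 of 55 control nuclei. Angpt1 thus stood at 22.5 CPM (10.8 to 41.3) in cOE against 75.8 CPM (45.7 to 118) in control, a log2 ratio of -1.75 (-3.02 to -0.58). In this gate 2.87% of 6682 genes were past 2-fold lower and 4.98% had an interval below 0; nothing is read from this, since the same contrast chose the gene.

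The control value rests on few nuclei. A single control nucleus held 11 of the 19 UMIs, 57.9%, while the highest cOE nucleus held 3 of 10. When the highest nucleus was left out on both sides, the log2 ratio came to -1.07 (-2.76 to 0.59), and with equal weight for each nucleus it was -0.64. Of the cOE nuclei 7.69% (3.15 to 15.2) had a UMI, and of the control nuclei 10.9% (4.11 to 22.2), which overlap. After thinning, 1 of 87 cOE and 2 of 48 control nuclei were positive.

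Other ways of collecting supporting cells, added after seeing the data, gave more nuclei. They overlap the gate and share the contrast that chose the gene, so their values are a further description and no independent support. Nuclei with a UMI of both Prox1, a transcription factor of supporting cells, and Fgfr3, a growth factor receptor of pillar and Deiters' cells, numbered 146 in cOE and 90 in control. They held 28 Angpt1 UMIs in 16 cOE nuclei and 57 in 24 control nuclei, at 15.1 CPM (10.0 to 21.8) and 42.4 CPM (32.1 to 55.0). The log2 ratio was -1.49 (-2.20 to -0.81), where 2.06% of 12631 genes were past 2-fold lower, and it was -1.43 once the highest nucleus on each side was left out.

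The Prox1 and Fgfr3 nuclei with Angpt1 were deep: their medians were 14728 UMIs in cOE and 15422 in control, against 6344.5 and 7516.5 for the whole set. Of that set 19 cOE and 16 control nuclei were also in the hair cell gate. With at most 2 hair cell markers allowed, 17 UMIs in 11 of 116 cOE nuclei stood against 35 UMIs in 15 of 66 control nuclei. The part that depth or doublets play in these values was not tested.

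A further set was made of the 3 clusters with Fgfr3, Prox1 or Cep41 among their leading genes, and the clustering had left out the 4 genes. Of their 163 cOE and 94 control nuclei, 49 and 27 were in the supporting cell gate, and many of the others were in the medial epithelium gate. The clusters held 8 Angpt1 UMIs in 7 of 163 cOE nuclei and 38 UMIs in 18 of 94 control nuclei. The level was 8.80 CPM (3.80 to 17.3) in cOE and 67.6 CPM (47.9 to 92.9) in control, with a log2 ratio of -2.94 (-4.25 to -1.82). Of the cOE nuclei 4.29% (1.74 to 8.65) were positive, and of the control nuclei 19.1% (11.8 to 28.6), at medians of 4991 and 4549 UMIs. Control was thus higher in the share of positive nuclei. It was also higher in UMIs per positive nucleus, but 1 control nucleus held 11 of the 38 UMIs and the next highest held 3. The highest cOE nucleus held 2.

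Cluster 19, led by Prox1, Cep41, Umodl1 and Lgr5, held most of this, with 4 UMIs in 4 of 60 cOE nuclei and 25 UMIs in 7 of 33 control nuclei. Of those 25 UMIs, 11 were in 1 nucleus. In cluster 23, led by 6330411D24Rik and Mansc4, 4 UMIs in 3 of 51 cOE nuclei stood against 10 UMIs in 8 of 34 control nuclei. Cluster 24, led by A330049N07Rik and Cep41, had 0 UMIs in 52 cOE nuclei and 3 in 27 control nuclei. Serpine2 over these 3 clusters was 249 CPM (217 to 283) in cOE and 187 CPM (153 to 226) in control.

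**Figure D2:**
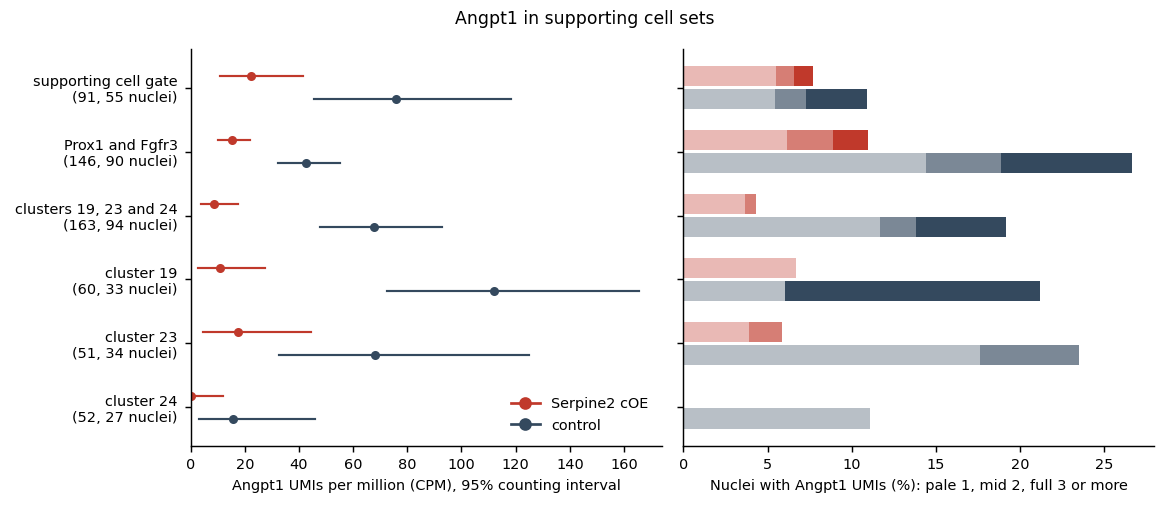
Angpt1 in 6 overlapping sets of supporting cell nuclei, cOE above control: left, level in CPM with 95% counting intervals; right, percent of nuclei with 1 (pale), 2 (mid) and 3 or more (full colour) Angpt1 UMIs. In cluster 19, 7 of 33 control nuclei were positive and 5 of them held 3 or more UMIs, while all 4 positive cOE nuclei held 1.

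Medial epithelium, which makes components of the tectorial membrane over the sensory strip, held 37 Angpt1 UMIs in 27 of 1636 cOE nuclei and 38 in 30 of 765 control nuclei, at 5.95 CPM (4.19 to 8.20) and 11.9 CPM (8.41 to 16.3). The log2 ratio was -0.999 (-1.69 to -0.31), in a gate where 10.5% of 15329 genes had an interval below 0. Without the nuclei that fell in the 3 clusters of supporting cells, an alternative added after seeing the data, 34 cOE and 25 control UMIs remained and the log2 ratio was -0.54 (-1.33 to 0.27). In the cluster with the most medial nuclei, led by Ano1 and Pla2r1, Angpt1 stood at 6.75 CPM in cOE and 7.63 CPM in control, from 22 and 13 UMIs and with a log2 ratio of -0.18 (-1.23 to 0.94). The medial difference thus lay partly in nuclei that cluster with supporting cells. Nuclei with both Notum and Nkd1, inhibitors of Wnt signalling, held 56 cOE and 88 control UMIs with a log2 ratio of -0.81 (-1.32 to -0.31), against 10.5% of genes with an interval below 0.

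Angpt2 (ENSMUSG00000031465, chromosome 8, 18739202 to 18791603, minus strand) was lower in cOE when summed over all kept nuclei. It gave 1096 UMIs in 852 cOE nuclei and 1406 UMIs in 978 control nuclei, at 33.4 CPM (31.5 to 35.5) and 52.0 CPM (49.3 to 54.8). The log2 ratio was -0.64 (-0.75 to -0.52). Of 11778 genes with at least 500 UMIs, 108 (0.917%) had a ratio as low or lower. The positive cOE nuclei numbered 685 with 1 UMI, 126 with 2 and 41 with 3 or more, and the positive control nuclei 696, 187 and 95.

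By gate, Angpt2 stood at 32.1 CPM (28.9 to 35.5) in cOE and 49.3 CPM (45.2 to 53.7) in control mesenchyme, a log2 ratio of -0.62 (-0.82 to -0.43) where 13.2% of 17544 genes had an interval below 0. In medial epithelium it stood at 29.1 CPM in cOE and 51.3 CPM in control. The log2 ratio was -0.82 (-1.13 to -0.50), with 10.5% of 15329 genes below 0. In hair cells it stood at 51.3 CPM in cOE and 65.4 CPM in control, a log2 ratio of -0.35 (-0.62 to -0.09), with 10.1% of 15522 genes below 0. Each of these gates was lower in cOE beyond counting error. Ungated nuclei were lower too, with a log2 ratio of -0.69 (-0.94 to -0.45) where 11.3% of genes had an interval below 0. The intervals held 0 in roof epithelium, at -0.70 (-1.42 to 0.02), and in lateral epithelium, at -0.41 (-1.67 to 0.81).

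Among gates with at least 20 Angpt2 UMIs, roof epithelium was lowest in both libraries, at 15.4 CPM (10.8 to 21.4) in cOE and 25.1 CPM (17.4 to 35.1) in control. Supporting cells held 21 UMIs at 47.2 CPM (29.2 to 72.1) in cOE and 9 UMIs at 35.9 CPM (16.4 to 68.2) in control. These intervals overlap widely, 8 of the 21 cOE UMIs were in 1 nucleus, and the log2 ratio of 0.39 came to -1.27 after thinning, so no direction is read. In 17 of the 19 clusters with at least 20 Angpt2 UMIs the cOE level was the lower one, and 4.28% of the 3294 genes with enough UMIs in the same clusters were lower in at least as many. The 2 exceptions were clusters 10 and 20, with log2 ratios of 0.13 (-0.59 to 0.86) and 0.49 (-0.83 to 2.07).

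Macrophages, a cell type not known for Angpt2, held it at a level like that of most gates. They had 6 UMIs in 6 of 93 cOE nuclei and 21 UMIs in 16 of 127 control nuclei, at 31.9 CPM (11.7 to 69.4) and 73.6 CPM (45.5 to 112). That is past 2-fold lower in cOE, as were 7.93% of 5499 genes in this gate, but the interval of the log2 ratio, -2.80 to 0.15, holds 0. After thinning, 1.14% (0.03 to 6.17) of 88 cOE and 7.14% (3.13 to 13.6) of 112 control macrophages were positive, against 3.07% and 4.91% of mesenchyme nuclei. The mesenchyme shares lie within the wide macrophage intervals, so at this number of macrophages the Angpt2 of mesenchyme cannot be told apart from background RNA.

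Before thinning, hair cells and roof epithelium stood apart from mesenchyme. Hair cells were above mesenchyme in both libraries by their intervals, 44.9 to 58.4 CPM in cOE and 57.5 to 74.1 CPM in control, and roof epithelium was below it. After thinning, 5.17% (3.30 to 7.65) of cOE and 7.44% (4.96 to 10.6) of control hair cells were positive, and 1.71% (0.82 to 3.13) and 1.48% (0.48 to 3.42) of roof epithelium. At equal depth hair cells thus remained above roof epithelium, while their intervals overlapped those of mesenchyme, 2.55 to 3.66 in cOE and 4.198 to 5.71 in control.

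Angpt2 lies wholly inside Mcph1 (18645128 to 18858114, plus strand), a gene of chromosome condensation, and shares 3387 exonic bases with it. The sources used here do not state whether strand was used in counting, so reads of the pair cannot be told apart with certainty. Mcph1 gave 987 UMIs in cOE and 905 in control, at 30.1 and 33.5 CPM and a log2 ratio of -0.15 (-0.29 to -0.02). It was lower in cOE in 11 and higher in 6 of the 17 clusters with at least 20 Mcph1 UMIs. Of the 4889 genes with enough UMIs in those clusters, 30.1% were lower in at least as many. In mesenchyme Mcph1 stood at 31.3 CPM in cOE and 33.8 CPM in control, a log2 ratio of -0.11 (-0.32 to 0.10), whose interval leaves out the Angpt2 ratio of that gate.

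Angpt2 and Mcph1 were also counted in the same nuclei. Before thinning, 29.8% of Mcph1-positive and 6.81% of Mcph1-negative cOE nuclei had Angpt2, and 34.7% and 9.61% of control nuclei. The positive nuclei were deeper, with medians of 3819 against 2331 UMIs in cOE and 3484 against 2184.5 in control. After thinning, the shares were 5.45% (3.01 to 8.97) and 2.97% (2.63 to 3.34) in cOE, and 12.9% (8.80 to 18.0) and 4.51% (4.04 to 5.02) in control. The intervals overlapped in cOE and not in control. In hair cells the thinned shares were 0 of 15 Mcph1-positive nuclei and 5.35% of the others in cOE, and 6.67% and 7.47% in control. The part of the overlapping gene in the Angpt2 values was not tested.

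**Figure D3:**
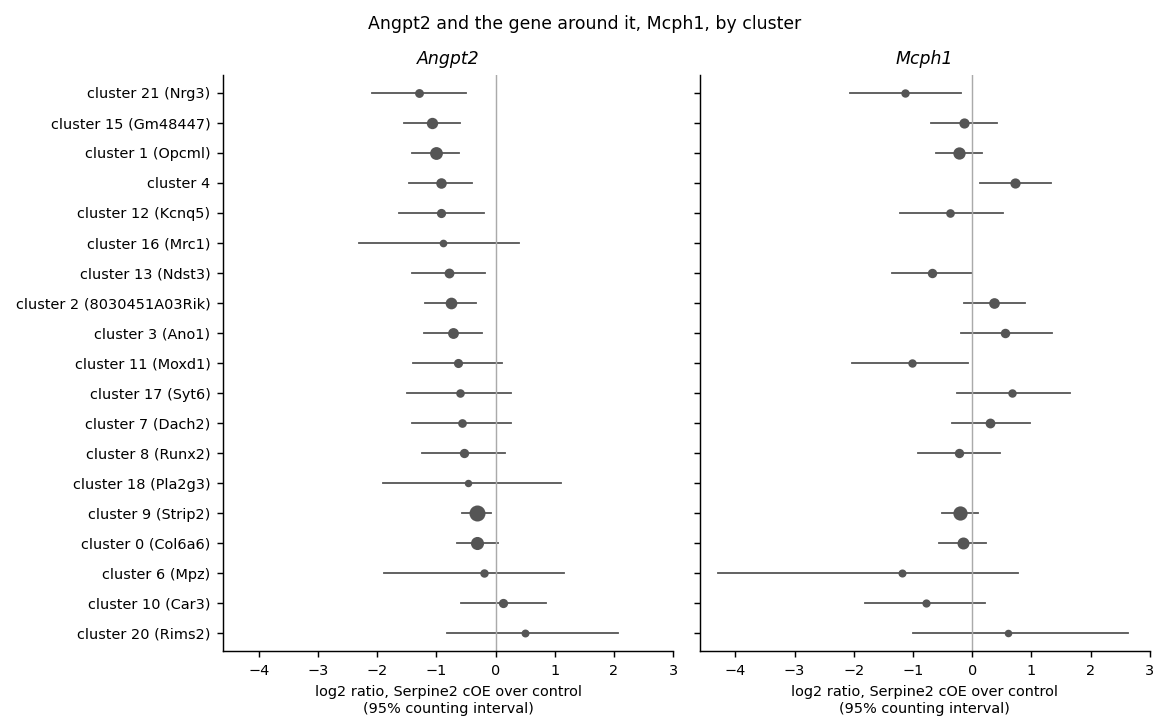
Log2 ratio of cOE over control for Angpt2 (left) and Mcph1 (right) in the 19 clusters with at least 20 Angpt2 UMIs, named by number and mostly by leading gene, with 95% counting intervals; a larger dot means more UMIs, and a row is blank where Mcph1 had under 20. The Angpt2 dots lie left of 0 in 17 of 19 clusters, and the Mcph1 dots on both sides.

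Tek (ENSMUSG00000006386, chromosome 4, 94627291 to 94763224, plus strand) encodes the angiopoietin receptor and overlaps no other annotated gene. It gave 424 UMIs in 389 cOE nuclei and 331 UMIs in 309 control nuclei, at 12.9 CPM (11.7 to 14.2) and 12.2 CPM (11.0 to 13.6). The log2 ratio was 0.08 (-0.13 to 0.29). Almost all were single molecules, with 355 of 389 cOE and 289 of 309 control nuclei holding 1 UMI. Over all nuclei the libraries did not differ beyond counting error.

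Tek was mainly a mesenchymal signal in these data. Mesenchyme held 247 UMIs in cOE and 174 in control, 58.3% and 52.6% of all Tek UMIs. The level there was 21.1 CPM (18.5 to 23.9) in cOE and 16.1 CPM (13.8 to 18.7) in control, a log2 ratio of 0.39 (0.10 to 0.68), where 14.8% of 17544 genes had an interval above 0. After thinning, 1.97% (1.56 to 2.46) of cOE and 1.83% (1.40 to 2.35) of control nuclei were positive, with overlapping intervals. These shares rest on 77 cOE and 60 control positive nuclei. They are too few to decide on a gap of the size seen in CPM, which is already scaled to total UMIs. Macrophages held 1 Tek UMI in each library, and their thinned shares were 1 of 88 cOE and 0 of 112 control nuclei.

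Hair cells held Tek at 12.4 CPM (9.40 to 16.2) in cOE and 13.03 CPM (9.64 to 17.2) in control, a log2 ratio of -0.07 (-0.65 to 0.52). The epithelial gates were low, with 4.66 CPM (3.12 to 6.69) in cOE and 2.81 CPM (1.29 to 5.34) in control medial epithelium and 3.86 and 5.18 CPM in roof epithelium. Supporting cells held 1 UMI in each library. In both libraries mesenchyme and hair cells stood above the medial epithelium by their CPM intervals, and mesenchyme above hair cells in cOE, while the medial, lateral and roof epithelia overlapped. After thinning, 1.57% (0.63 to 3.21) of cOE and 1.38% (0.45 to 3.185) of control hair cells were positive. In medial epithelium 0.31% (0.10 to 0.73) and 0.55% (0.15 to 1.41) were. At equal depth the hair cell intervals thus overlapped those of medial epithelium, and also those of mesenchyme.

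Among the clusters with mesenchyme as their largest gate, the one led by Col6a6 was highest for Tek too, with 34.4 CPM (28.8 to 40.8) in cOE and 24.8 CPM (19.8 to 30.6) in control, a log2 ratio of 0.47 (0.07 to 0.88). In the cluster led by Opcml, Tek stood at 20.3 CPM in cOE and 19.0 CPM in control. The cluster led by Runx2 and Dio2 had Tek at 15.7 and 10.7 CPM and little Angpt1, with 3 UMIs in cOE and 5 in control. Tek was higher in cOE in 7 of 9 clusters with at least 20 UMIs, as were 27.2% of 8505 genes in as many or more of the same clusters.

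Nuclei with both Dio2, a thyroid hormone-activating deiodinase, and Coch, a matrix protein of cochlear fibrocytes, numbered 97 in cOE and 63 in control. They held 16 cOE and 4 control Tek UMIs. Their log2 ratio came to 1.83 (0.20 to 3.87), and 3.03% of 10988 genes were past 2-fold higher there. With no doublets removed it came to 0.36 (-0.79 to 1.57) from 19 and 11 UMIs, so the gap depended on which nuclei were taken for doublets.

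**Figure D4:**
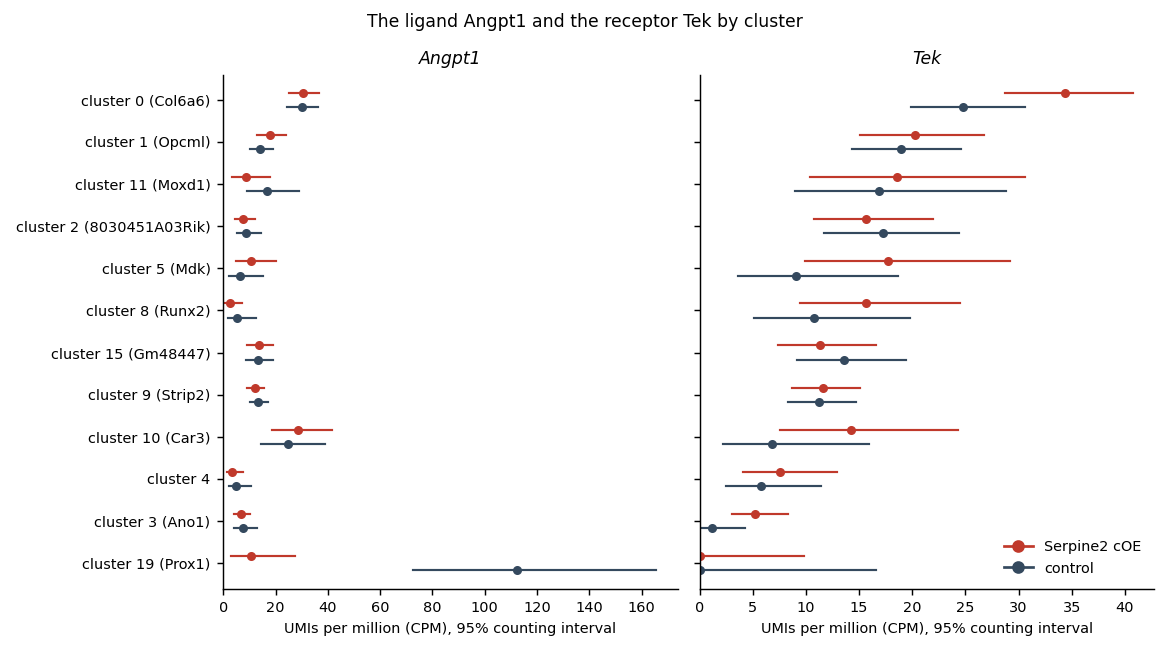
Level in CPM of Angpt1 (left) and Tek (right) in 12 clusters, named by number and mostly by leading gene, cOE above control with 95% counting intervals. Both genes were high in cluster 0, led by Col6a6, while cluster 19, led by Prox1, held no Tek UMI and had Angpt1 at 10.7 CPM in cOE against 112 CPM in control.

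Tie1 (ENSMUSG00000033191, chromosome 4, 118328385 to 118347261, minus strand) was close to absent. It gave 12 UMIs in 12 cOE nuclei and 15 UMIs in 13 control nuclei, at 0.366 CPM (0.189 to 0.639) and 0.555 CPM (0.311 to 0.915). The log2 ratio was -0.60 (-1.83 to 0.59), which leaves the direction undecided. In cOE 6 UMIs fell in mesenchyme, 4 in roof epithelium and 2 in medial epithelium, and in control mesenchyme held 4 and the endothelial gate 3. The gene lies within the lncRNA Gm70435 on the other strand and shares 238 exonic bases with it.

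The endothelial nuclei held few UMIs of the 4 genes in all, at levels with wide intervals. Tek stood at 129 CPM (15.6 to 466) in the cOE nuclei from 2 UMIs and at 22.7 CPM (0.574 to 126) in the control nuclei from 1. Tie1 had 0 UMIs in the cOE nuclei, which allows up to 193 CPM, and 3 UMIs at 68.0 CPM (14.0 to 199) in the control nuclei, against 0.370 CPM in control mesenchyme. A control nucleus with all 13 endothelial markers and 11382 UMIs held 3 Tie1, 1 Tek, 20 Cdh5 and 7 Pecam1 UMIs. A cOE nucleus with 9 of the markers and 3088 UMIs held 2 Tek UMIs and no Tie1. A control nucleus with 7 markers and 1636 UMIs held none of the 4 genes. Only these 3 nuclei of the gate had more than 4 of the markers, and no nucleus of the gate had Angpt1. Angpt2 showed 2 UMIs in 1 control nucleus with 3 markers, so its level in vessel cells could not be measured at this depth.

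Ligand and receptor were seen in the same nucleus in a minority of cases. Of the nuclei with Angpt1, 28 of 301 in cOE and 23 of 307 in control also had Tek. Angpt1 was found in 7.20% of Tek-positive and 2.91% of Tek-negative cOE nuclei, and in 7.44% and 3.58% of control nuclei. The Tek-positive nuclei were deeper, with medians of 3120 against 2378 UMIs in cOE and 3081 against 2225 in control. After thinning, the shares were 2.36% (0.490 to 6.75) and 1.09% (0.884 to 1.32) in cOE and 1.85% (0.225 to 6.53) and 1.45% (1.19 to 1.75) in control, with overlapping intervals.

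The levels of Angpt1, Angpt2 and Tek were set side by side across 16 points, each a gate with at least 20 nuclei in 1 library. On log2(CPM + 1), Pearson's r was 0.42 between Angpt1 and Tek, 0.24 between Angpt1 and Angpt2, and 0.39 between Angpt2 and Tek. The points come from 2 libraries and share their depth and their background RNA. They include both supporting cell values, by which Angpt1 was chosen. Gates without a UMI of a gene, such as macrophages for Angpt1, entered as level 0 whatever their limit. Most like Angpt1 were Chst10 (0.94), Mllt3 (0.92), Zswim1 (0.91), D530017H19Rik (0.91) and AV039307 (0.91). Most like Tek were Islr (0.91), Col6a6 (0.91), Ets1 (0.89), Ranbp3l (0.89) and 4930594M22Rik (0.88).

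The genes most like Angpt2 were Mfsd4a (0.89), Drg1 (0.86), Spats2 (0.85), Snx32 (0.83) and Qtrt1 (0.83), and its r with Mcph1 was 0.51. None of the 15 genes named for the 3 profiles served as a gate marker. With 15763 genes compared over 16 points, such values are a description. Tie1, with 22 UMIs in gated nuclei, was too sparse for a profile.

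Of the other angiopoietin genes, Angpt4, which encodes a further Tek ligand, was lower in cOE. It gave 44 UMIs in cOE and 80 in control, at 1.34 CPM (0.975 to 1.80) and 2.96 CPM (2.35 to 3.68), and a log2 ratio of -1.14 (-1.71 to -0.59). In hair cells it had 5 UMIs in cOE and 18 in control, and in ungated nuclei 5 and 23. Mesenchyme held 20 and 24, with a log2 ratio of -0.38 (-1.31 to 0.54), medial epithelium 7 and 7, and roof epithelium 5 and 1. Over all kept nuclei Angpt4 was the single gene of 19 in the list of the angiopoietin and Tie pathway that was past 2-fold lower, and none was past 2-fold higher. Of all genes 1.58% were past 2-fold lower and 1.54% past 2-fold higher.

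In that pathway list the interval lay above 0 for 4 and below 0 for 8 of 19 genes over all nuclei, beside 21.8% and 19.2% of all genes, and the list's median log2 ratio was -0.16 against 0.00264 for all genes. Below 0 were Svep1, a matrix protein that binds Tie1, at -0.30 (-0.43 to -0.17), and Ptpn11, a phosphatase recruited by active Tek, at -0.20 (-0.30 to -0.11). The adaptor Grb2 was at -0.19 and the shear-responsive transcription factor gene Klf2 at -0.29. Among those above 0 were Grb7 at 0.81 (0.33 to 1.31), Grb14 at 0.21, and Foxo1, a transcription factor gene, at 0.13. Ptprb, the endothelial phosphatase that acts on Tek, had 24 UMIs in cOE and 10 in control, with a log2 ratio of 0.98 (-0.13 to 2.21).

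In mesenchyme 16 genes of the list reached 20 UMIs, of which 3 had an interval above 0 and 3 below, near the 14.8% and 13.2% of all genes there, with a median of -0.06 against 0.00478 for all genes. In supporting cells 10 reached 20 UMIs. Of these only Grb2 had an interval below 0, at -0.78 (-1.55 to -0.01), where 4.98% of all 6682 genes had one. None of the 10 had an interval above 0, against 4.65% of all genes. Their median was -0.01, against 0.0239 for all genes.

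The vascular endothelial growth factor list had 9 genes, 2 with an interval above 0 and 3 below, and a median of -0.13. Of all genes over the same nuclei 21.8% were above and 19.2% below, and the list's counts are near these shares. Vegfa stood at 44.0 CPM in cOE and 38.2 CPM in control with a log2 ratio of 0.21 (0.09 to 0.32), and Vegfc at 23.1 and 18.4 CPM with 0.32 (0.16 to 0.49). Vegfd, a lymphatic growth factor, was lower at 8.99 CPM in cOE and 14.4 CPM in control, with -0.68 (-0.90 to -0.46). The angiopoietin-like list had 0 of 6 above and 3 below (21.8% and 19.2% of all genes), with a median of -0.11, and the list of vessel recruitment and maturation had 6 above and 6 below of the 17 that reached 20 UMIs. In this last list Efnb2, an arterial ephrin, was at 0.46 (0.35 to 0.57) and its receptor Ephb4 at -0.31 (-0.44 to -0.19).

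**Figure D5:**
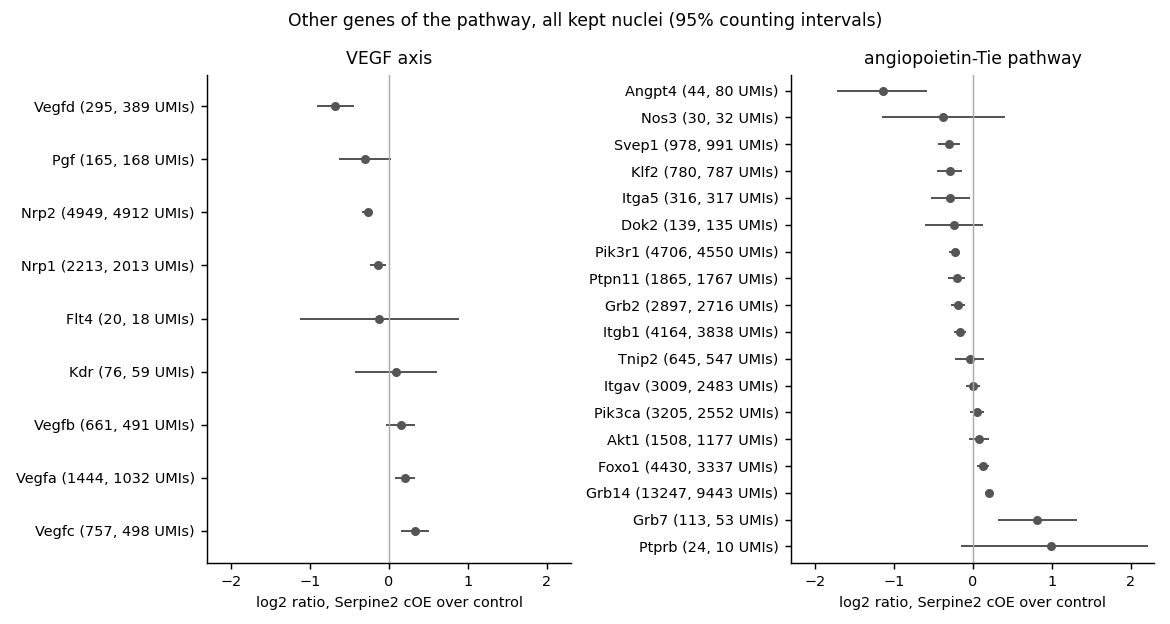
Log2 ratio of cOE over control, over all kept nuclei, of genes in the vascular endothelial growth factor list (left) and the angiopoietin and Tie pathway list (right), with 95% counting intervals and UMIs in brackets (cOE first). Angpt4 is the lowest at -1.14 from 44 and 80 UMIs.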

How the data were processed

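Nuclei were profiled in 2 libraries, 1 per group. The deposited values are counts, whole numbers of UMIs per gene and barcode, which the authors made with Cell Ranger 8.0.1 per the file headers. Per the submitters' processing notes STAR was used, version not given in the sources used here. The design text gives the 3' v3.1 kit and GRCm39, and the processing notes give mm10. Positions come from GENCODE M39, which held 33185 of the 33696 gene identifiers. Whether strand and introns were counted is not given in the sources used here.

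The libraries had 12014 (cOE) and 9820 (control) barcodes with 40429121 and 31158971 UMIs. Nuclei with at least 500 genes and at most 5% mitochondrial UMIs were kept. Scrublet (scanpy 1.11.5) marked 0% as doublets in both libraries by its automatic threshold, so the top 0.8% of scores per 1000 barcodes were removed, 1040 and 703 nuclei. A nucleus was gated by the list, of 17 marker lists, with most detected markers, given at least 3 and 1 more than any other list. This gated 72.7% of cOE and 63.3% of control nuclei. Leiden clustering (leidenalg 0.10.2, resolution 1, 3000 variable genes, 50 components, 15 neighbours) left out the 4 genes, Serpine2 and Lgr5 and gave 26 clusters, named here by leading genes.

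UMIs were summed per gate and library and scaled to CPM, with exact Poisson, Clopper-Pearson and conditional binomial 95% intervals (scipy 1.17.1). A count of 0 was given the limit of 3 counts. A gene counted as past 2-fold with at least 20 UMIs over both libraries. Thinned shares used 1000 UMIs per nucleus, without the 436 cOE and 844 control nuclei that were shallower. The intervals were tried on simulated Poisson counts drawn from the gate sums. That simulation had no spread between nuclei, so it does not check the intervals against such spread. Named genes are the 4 genes, listed pathway genes with at least 20 UMIs, and the 5 genes most like each profile. The genes and lists were chosen with earlier results of these data known. Alternatives covered gate stringency, nucleus filters, doublets, scaling (TMM, edgeR 4.0.16 in R 4.3.3), thinning and single nuclei. Some genes are not reported here by name.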

Additional observations from a re-analysis of the deposited data

How the results depend on the processing

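Over all kept nuclei the log2 ratio of cOE over control ran over 7 alternatives from -0.39 to -0.26 for Angpt1, from -0.75 to -0.57 for Angpt2 and from -0.08 to 0.09 for Tek, so the last had no settled direction. Angpt1 in supporting cells, the value that chose the gene, ranged over 13 alternatives from -2.94 in the 3 clusters to -0.64 with nuclei weighted equally, which is no sign of stability; 5 of the 13 replaced the gate by sets added after seeing the data. With a lead of 2 markers over any other list it gave no ratio, from 0 UMIs in 25 cOE and 5 UMIs in 19 control nuclei. Angpt1 in mesenchyme ran from -0.25 to 0.17, Angpt1 in medial epithelium from -1.46 to -0.54, and Tek in mesenchyme from 0.12 to 0.48. Tek in nuclei with Col6a6 and Aldh1a2 turned round with thinning, at -0.47 from 14 and 20 UMIs against 0.52 without; the cause was not tested. After thinning, Angpt1 and Tek had no UMI in 1 or both libraries in the Dio2 and Coch nuclei and in the Prox1 and Fgfr3 nuclei, and gave no ratio there. Angpt2 in supporting cells ran from -1.27 to 0.70. Tie1 ran from -0.72 to 0.40. With at least 50 in place of 20 UMIs, genes past 2-fold higher and lower numbered 162 and 134 in place of 320 and 328 over all nuclei, 88 and 70 in place of 226 and 256 in mesenchyme, 81 and 122 in place of 272 and 306 in medial epithelium, and 52 and 27 in place of 308 and 192 in supporting cells. No paired analysis was possible because each group is 1 library. Depth limits the small gates: supporting cells summed to 445061 cOE and 250585 control UMIs, so a gene at 0 could stand at 6.74 and 12.0 CPM there.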
